A study of Mus musculus with 24 samples.

Results

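Lyz2, Cd14, Csf1r, Adgre1, C1qa, C1qb, Chil3, Ctss, Cst3 and Tlr2 are 10 genes best known from macrophages and monocytes, and their transcripts were followed through 3 lymphocyte populations sorted from mouse colon. The genes were chosen by name, with earlier results of these data known, and all 10 were found among the 27179 genes of the count table. NMU is neuromedin U, a neuropeptide, and NMUR1 is its receptor. NMU was given to 4 mice (mice 1 to 4) and phosphate-buffered saline (PBS) to the other 4 (mice 5 to 8), by intraperitoneal injection every other day. All 8 were Nmur1iCre-eGFP mice, in which eGFP reports Nmur1, and all drank 3% dextran sulfate sodium (DSS), which injures the colon, for 5 days and then water for 3 days. Group-2 innate lymphoid cells (ILC2, also eGFP+), CD4 T cells with eGFP (called NMUR1+) and CD4 T cells without it (called NMUR1-) were each taken from the colonic lamina propria of every mouse, which made 6 groups of 4 and 24 libraries in all. The sample titles name 4 mice per treatment and are followed here, although the design text speaks of 3. The ILC2 gate was CD45+, lineage-negative, CD90.2+, CD127+ and KLRG1+, and the T cell gate CD45+, CD3+, CD5+ and CD4+. The sources used here state neither the markers of the lineage gate nor the age of the mice.

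Macrophages and monocytes are the phagocytes of the myeloid lineage. In the gut, monocytes arrive from blood during inflammation and mature into macrophages that engulf microbes and dead cells. Their development and survival depend on the CSF1 receptor, encoded by Csf1r. They sense bacterial products through CD14 and toll-like receptor 2 (Tlr2), digest bacterial walls with lysozyme (Lyz2) and produce the complement protein C1q (C1qa, C1qb). Adgre1 encodes F4/80, the classical surface marker of mouse macrophages. Chil3 encodes Ym1, a chitinase-like protein secreted by mouse myeloid cells. Ctss encodes cathepsin S, a protease that processes MHC class II complexes, and Cst3 encodes cystatin C, an inhibitor of such proteases. PU.1, encoded by Spi1, is the transcription factor that directs the myeloid fate.

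Promoter sequence from RefSeq (build GRCm38.p6) was at hand for 6 of the 10 genes: Lyz2, C1qb, Chil3, Ctss, Cst3 and Tlr2. By mm10 coordinates, the genes lie at chr10:117277541-117282272 (Lyz2), chr17:57358581-57483529 (Adgre1), chr4:136895916-136898844 (C1qa), chr4:136880126-136886200 (C1qb), chr3:106147554-106167564 (Chil3), chr3:95526786-95556405 (Ctss), chr2:148871722-148875512 (Cst3) and chr3:83836272-83841824 (Tlr2). The 250 bases before each transcription start were searched on both strands for GAGGAA, the core that PU.1 binds, and for TTGCNNAA, a core of C/EBP sites. The Tlr2 window (chr3:83841609-83841858, minus strand) precedes a start inside the gene as given above, and most of it lies within that gene. The PU.1 core occurred once each in the windows of C1qb (first base at -30 from the start), Ctss (-164) and Cst3 (-230), and not in those of Lyz2, Chil3 and Tlr2. It occurred in 23.3% of all 32851 promoter windows of that length. The C/EBP core was in none of the 6 windows and in 9.56% of all windows. The 3 windows with a PU.1 core are given with that core in capitals. The window of Chil3, the gene with the highest fold between NMUR1+ and NMUR1- CD4 T cells, is given beside them. In that comparison C1qb, Ctss and Cst3 were called higher in NMUR1+ cells. So were Lyz2, Chil3 and Tlr2, whose windows lack the core, and a link of the core to these levels was not tested. Such a match of letters is a description and shows no binding.
C1qb promoter, chr4:136886201-136886450, minus strand: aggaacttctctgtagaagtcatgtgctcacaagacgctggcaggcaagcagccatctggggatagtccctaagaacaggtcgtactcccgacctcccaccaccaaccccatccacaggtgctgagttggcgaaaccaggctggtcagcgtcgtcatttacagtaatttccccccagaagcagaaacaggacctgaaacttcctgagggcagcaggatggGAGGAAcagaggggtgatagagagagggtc
Ctss promoter, chr3:95526536-95526785, plus strand: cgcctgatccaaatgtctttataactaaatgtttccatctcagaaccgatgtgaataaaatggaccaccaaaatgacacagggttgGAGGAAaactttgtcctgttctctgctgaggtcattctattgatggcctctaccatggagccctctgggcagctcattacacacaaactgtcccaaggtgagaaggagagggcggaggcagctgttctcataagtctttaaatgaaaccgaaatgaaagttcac
Cst3 promoter, chr2:148875513-148875762, minus strand: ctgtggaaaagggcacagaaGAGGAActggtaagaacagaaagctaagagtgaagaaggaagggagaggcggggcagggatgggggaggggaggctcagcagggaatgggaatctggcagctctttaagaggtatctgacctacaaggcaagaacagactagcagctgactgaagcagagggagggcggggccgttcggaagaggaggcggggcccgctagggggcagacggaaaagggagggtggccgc
Chil3 promoter, chr3:106167565-106167814, minus strand: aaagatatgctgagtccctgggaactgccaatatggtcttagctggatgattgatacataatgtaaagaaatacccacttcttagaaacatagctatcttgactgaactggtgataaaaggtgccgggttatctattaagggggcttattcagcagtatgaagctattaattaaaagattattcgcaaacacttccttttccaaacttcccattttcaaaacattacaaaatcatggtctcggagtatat

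Each library held between 8485266 and 17854961 counts, with a median of 12468364, and the 10 genes together took between 0.0350% and 0.438% of the counts of a library. Levels are given as CPM, counts scaled to library size after TMM normalisation. Cd3e and Gata3 followed the sort labels: Cd3e had 0, 6.15 and 12.1 CPM (lowest, median and highest) in ILC2, against 697, 829 and 1026 CPM in NMUR1+ and 822, 929 and 1006 CPM in NMUR1- CD4 T cells, and Gata3 had 4241, 5771 and 6572 CPM in ILC2, against 292 to 1956 CPM in CD4 T cells. Klrg1 and Il1rl1 overlapped between ILC2 and NMUR1+ CD4 T cells. Klrg1, a marker of the ILC2 gate, had 685, 1115 and 1698 CPM in ILC2, 437, 669.01 and 1192 CPM in NMUR1+ and 32.3, 103 and 187 CPM in NMUR1- CD4 T cells, and Il1rl1, the gene of the IL-33 receptor, had 243 to 490 CPM in ILC2, 162 to 419 CPM in NMUR1+ and 34.2 to 82.7 CPM in NMUR1- CD4 T cells. Within ILC2, Klrg1 differed between treatments, with 1272 to 1698 CPM in NMU mice and 685 to 958 CPM in PBS mice. That difference passed (log2 0.82 ± 0.14, edgeR adjusted p = 0.0300), where 0.660% of all genes were called. Nmur1 went against the labels in mouse 1, where it had 6.09 CPM in the library labelled NMUR1+ and 7.22 CPM in that labelled NMUR1-. In the other 7 mice Nmur1 had 15.4 to 75.0 CPM in NMUR1+ and 1.61 to 7.87 CPM in NMUR1- CD4 T cells. Immunoglobulin genes and Jchain, transcripts of B and plasma cells, were 0.0241% to 7.93% of all counts for ILC2, 0.784% to 30.4% for NMUR1+ and 0.146% to 5.58% for NMUR1- CD4 T cells. In such bulk libraries fewer cells of a type and less RNA per cell cannot be told apart.

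The macrophage and monocyte transcripts were detected in all 3 populations and had their highest means in NMUR1+ CD4 T cells. Their summed level was 326, 604 and 1298 CPM (lowest, median and highest of 8 libraries) in ILC2, 1534, 3030 and 4681 CPM in NMUR1+ CD4 T cells and 574, 823 and 1350 CPM in NMUR1- CD4 T cells. No ILC2 or NMUR1- library reached the lowest NMUR1+ library, that of PBS mouse 6. In ILC2 the largest parts of the sum were Ctss (mean 259 CPM), Lyz2 (126 CPM) and Cst3 (95.8 CPM). All 10 genes had counts in every CD4 T cell library, while in ILC2 Chil3 had counts in 1 library of 8. Per kilobase of exon, the level in NMUR1+ CD4 T cells was highest for Lyz2 (mean 706 CPM per kilobase) and Ctss (665), followed by Cd14 (305), Cst3 (124.7), C1qb (114), C1qa (109.7), Chil3 (50.5), Tlr2 (35.2), Adgre1 (22.1) and Csf1r (19.1). In ILC2 the order on the same scale began with Ctss (191 CPM per kilobase), Lyz2 (95.5) and Cst3 (75.7), and ended with Csf1r (3.60) and Chil3 (0.0705). In NMUR1- CD4 T cells Ctss (267 CPM per kilobase) and Lyz2 (179) led and Chil3 (3.16) was last.

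**Figure D1:**
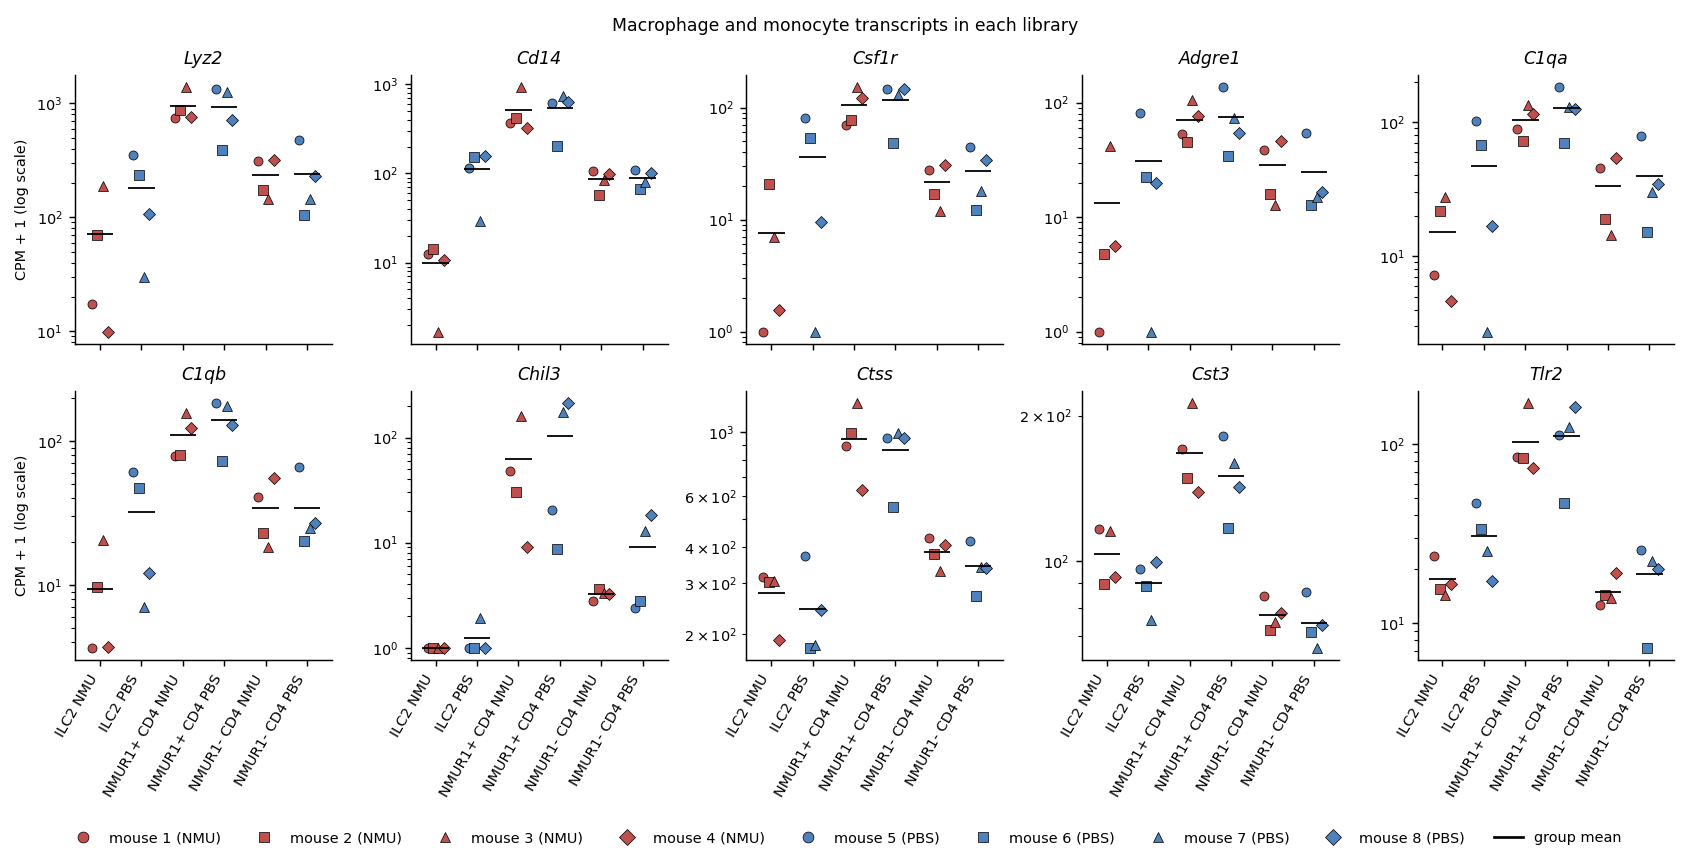
Level of each of the 10 genes in all 24 libraries, as CPM + 1 on a log axis that differs between panels, with 1 symbol per mouse, NMU mice in red, PBS mice in blue and a line at the group mean. The NMUR1+ CD4 groups have the highest means in every panel, and ILC2 libraries of Csf1r run between 0 and 79.0 CPM.

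Lyz2, the lysozyme of macrophages, had 390, 809 and 1396 CPM (lowest, median and highest) in NMUR1+ CD4 T cells, against 103, 201 and 474 CPM in NMUR1- CD4 T cells. Its log2 difference was 1.99 ± 0.58 (SE), 3.96-fold (edgeR adjusted p = 0.0384). The ranges overlapped because NMUR1- CD4 T cells of mouse 5 held more Lyz2 than NMUR1+ cells of mouse 6, although within each of the 8 mice the NMUR1+ library was higher. With mouse as a replicate block, Lyz2 did not pass (log2 difference 1.95, edgeR adjusted p = 0.0574), and it also did not pass without mouse 1, 2, 3, 6, 7 or 8 (adjusted p over all 19 alternatives 0.00154 to 0.448). Lyz1, the lysozyme of Paneth cells, shares 15.4% of the 50-base words of Lyz2, and it had at most 29.6 CPM in any library. Like Lyz2, it was called higher in NMUR1+ than in NMUR1- CD4 T cells (log2 3.61 ± 1.04, edgeR adjusted p = 0.0324). It was also called lower in ILC2 than in NMUR1+ CD4 T cells (log2 -5.42 ± 1.18, edgeR adjusted p = 0.000836).

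Among the surface receptors, Cd14 and Tlr2 were separated most clearly. Cd14, the co-receptor for bacterial lipopolysaccharide, had 204, 512 and 938 CPM in NMUR1+ CD4 T cells, against 55.8, 91.4 and 107 CPM in NMUR1- CD4 T cells. The groups did not overlap, and the difference was 6.11-fold (log2 2.61 ± 0.45, edgeR adjusted p = 0.000913). Tlr2, the receptor for bacterial lipopeptides, had 45.7, 97.8 and 169 CPM in NMUR1+ and 6.26, 15.7 and 24.5 CPM in NMUR1- CD4 T cells. These groups were likewise apart, by 6.78-fold (log2 2.76 ± 0.29, edgeR adjusted p = 2.92e-06). Csf1r, the receptor for the growth factor CSF1, had 47.1, 124.6 and 152 CPM in NMUR1+ and 11.02, 21.9 and 43.4 CPM in NMUR1- CD4 T cells. Its groups did not overlap, yet with a wide error the difference did not pass (log2 2.25 ± 0.82, edgeR adjusted p = 0.102). Adgre1 had 33.2, 63.4 and 137 CPM in NMUR1+ and 11.7, 15.2 and 53.5 CPM in NMUR1- CD4 T cells, with overlap, and did not pass (log2 1.499 ± 0.83, edgeR adjusted p = 0.318). In a fit of the 16 CD4 T cell libraries alone, both passed (edgeR adjusted p = 0.000412 for Csf1r and 0.0238 for Adgre1, with ranges over the 19 alternatives of 0.000412 to 0.662 and of 0.0238 to 0.999).

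The C1q genes lie close together on chromosome 4. C1qb, the B chain, had 71.9, 125.4 and 182 CPM in NMUR1+ CD4 T cells, against 17.2, 25.0 and 64.6 CPM in NMUR1- CD4 T cells, without overlap and 3.72-fold higher (log2 1.90 ± 0.48, edgeR adjusted p = 0.0177), although it did not pass without mouse 2 (adjusted p = 0.0612) or mouse 8 (adjusted p = 0.0549, range over the 19 alternatives 0.000588 to 0.319). C1qa, the A chain, had 68.6, 119 and 182 CPM in NMUR1+ and 13.5, 31.3 and 77.3 CPM in NMUR1- CD4 T cells and did not pass (log2 1.69 ± 0.58, edgeR adjusted p = 0.0827). It passed with DESeq2 (adjusted p = 0.0214), with limma (adjusted p = 0.00869) and in the edgeR fit of the CD4 T cell libraries alone (adjusted p = 0.00586, range over the 19 alternatives 0.00586 to 0.613). Chil3, the gene of Ym1, had the highest fold and the widest spread, with 7.69, 38.4 and 212 CPM in NMUR1+ and 1.38, 2.30 and 17.2 CPM in NMUR1- CD4 T cells (18.8-fold, log2 4.23 ± 0.87, edgeR adjusted p = 0.00540). By limma it did not pass (adjusted p = 0.123, range over the 19 alternatives 4.91e-05 to 0.202). Its groups overlapped, and the NMUR1+ levels above 150 CPM came from mice 3, 7 and 8. Chil4, a close relative, shares 26.9% of the 50-base words of Chil3, so its counts are less certain than those of the other members.

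The protease and inhibitor of the MHC class II pathway differed by smaller folds with smaller errors. Ctss had 550, 952 and 1259 CPM in NMUR1+ CD4 T cells, against 269.9, 358 and 428 CPM in NMUR1- CD4 T cells (2.51-fold, log2 1.33 ± 0.17, edgeR adjusted p = 2.49e-05). Cst3 had 116, 153 and 211 CPM in NMUR1+ and 65.1, 73.2 and 85.5 CPM in NMUR1- CD4 T cells (2.12-fold, log2 1.08 ± 0.11, edgeR adjusted p = 2.31e-06). Neither gene's groups overlapped.

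In all, 7 of the 10 genes were higher in NMUR1+ than in NMUR1- CD4 T cells and none was lower, where 5.49% of the 13509 genes tested were called higher. The median log2 difference of the 10 was 1.94, beside -0.01 over all genes tested. All 10 were higher in the NMUR1+ library of each of the 8 mice. The ratio within a mouse varied most for Chil3 (3.58 to 68.8) and least for Cst3 (1.66 to 2.87), and mouse 3 had the highest ratio for all 10 genes. In the fit of the 16 CD4 T cell libraries alone all 10 were called higher, where 9.93% of genes were. Without mouse 1, 6 of the 10 passed, and without the 4 mice whose NMUR1+ libraries held over 20% immunoglobulin counts (1, 4, 5 and 7) 6 passed (Lyz2, C1qa, C1qb, Ctss, Cst3 and Tlr2). In NMU mice alone, and likewise in PBS mice alone, 4 of the 10 passed (Cd14, Ctss, Cst3 and Tlr2). Transcripts of B and plasma cells moved with these genes: 7 of 11 tested markers were higher in NMUR1+ cells, and the 11 summed to 2225 to 99126 CPM for NMUR1+ against 1133 to 11486 CPM for NMUR1- CD4 T cells, with no marker at 0. With the log2 level of Jchain as a covariate, the same 4 genes passed. Among NMUR1+ libraries the lowest sum of the 10, 1534 CPM, was that of mouse 6, with 2.29% immunoglobulin counts, and the highest, 4681 CPM, that of mouse 3, with 12.4%, while mouse 2 held 2805 CPM with 0.784% and mouse 1 held 2592 CPM with 30.4%. Among NMUR1- libraries the 3 with the most immunoglobulin (mice 4, 5 and 1, with 5.58%, 3.95% and 2.83%) held the 3 highest sums (1096, 1350 and 1089.5 CPM), and the others held at most 884 CPM. Among ILC2 libraries mouse 5 was highest in both, with 7.93% and 1298 CPM, but the others did not follow one order. Mouse 8 held 671 CPM with 4.49%, and mouse 7 held 347 CPM with 1.575%. Mouse 6 held 871 CPM with 0.665%, and mouse 3 held 713 CPM with 0.867%.

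**Figure D2:**
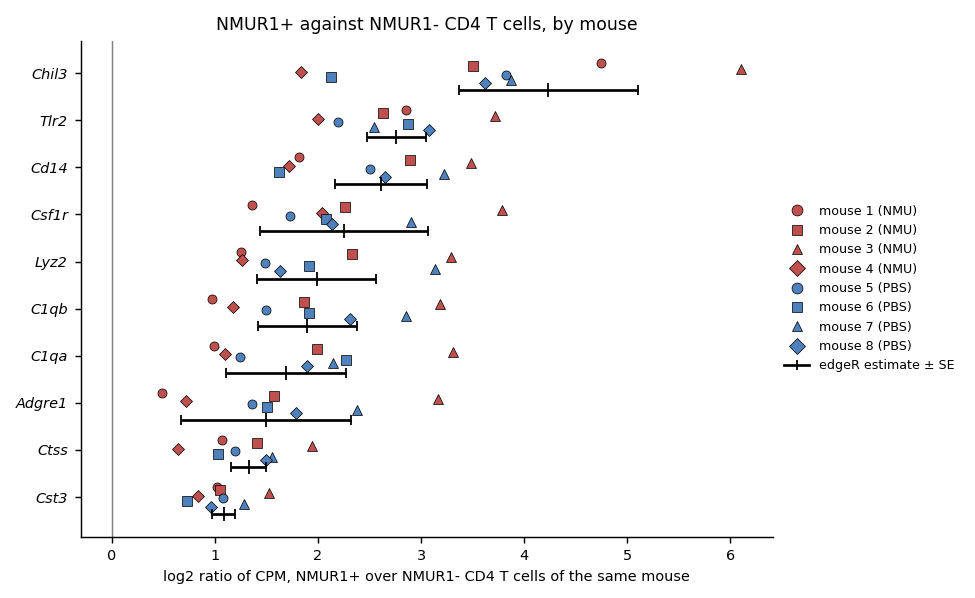
Log2 ratio of CPM in NMUR1+ over NMUR1- CD4 T cells of the same mouse for each gene (symbols, NMU mice in red and PBS mice in blue), with the edgeR estimate and its SE in black below. All 80 ratios lie above 0, from 1.40-fold for Adgre1 in mouse 1 to 68.8-fold for Chil3 in mouse 3.

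**Figure D3:**
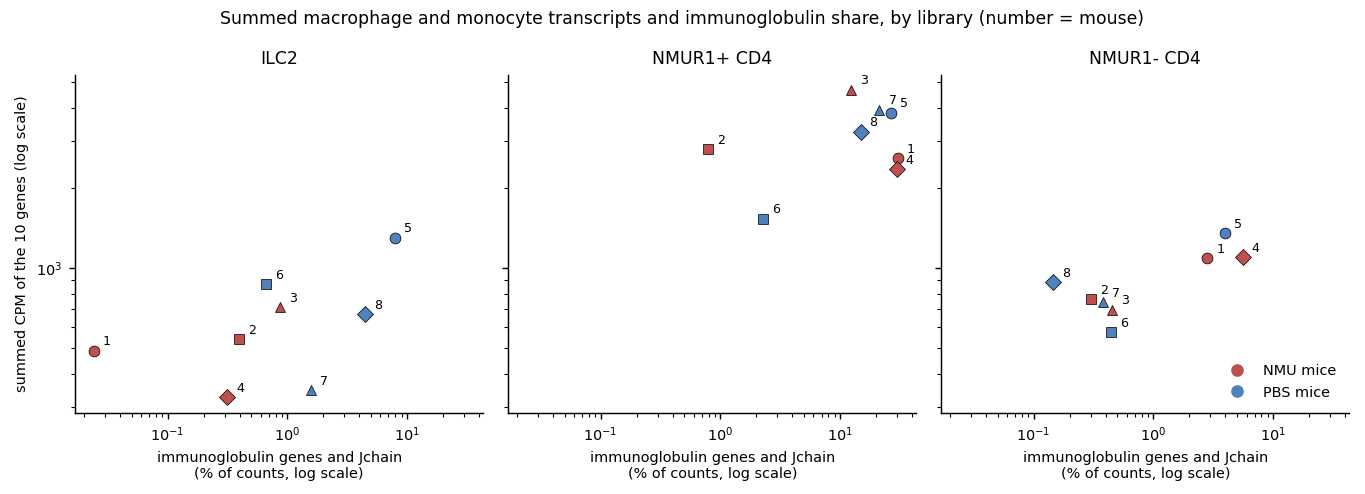
Summed CPM of the 10 genes (log axis) against the percentage of counts from immunoglobulin genes and Jchain (log axis), 1 panel per population and 1 numbered symbol per mouse. Every NMUR1+ CD4 library lies at or above 1534 CPM, and among NMUR1- CD4 libraries the 3 with the most immunoglobulin (mice 1, 4 and 5) have the 3 highest sums.

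ILC2 held less of these transcripts than NMUR1+ CD4 T cells: 9 of the 10 genes were lower and none higher, where 23.5% of the 13509 genes tested were called lower. The median log2 difference of the 10 was -2.56, beside -0.10 over all genes tested. Chil3 had 10 counts in ILC2 of PBS mouse 7 (0.921 CPM) and none in the other 7 ILC2 libraries, where 3 counts would equal 0.230 to 0.354 CPM, against 7.69 to 212 CPM in NMUR1+ CD4 T cells (edgeR adjusted p = 9.64e-06). Cd14 had 0.684, 20.9 and 157 CPM in ILC2 and was 16.8-fold lower (log2 -4.07 ± 0.48, edgeR adjusted p = 1.45e-06). That fold averages unlike treatment groups. In NMU mice the mean Cd14 was 8.78 CPM in ILC2 and 511 CPM in NMUR1+ CD4 T cells. In PBS mice it was 112 CPM in ILC2 and 544 CPM in NMUR1+ CD4 T cells. Lyz2 had 8.93, 86.9 and 354 CPM in ILC2 and was 8.20-fold lower (log2 -3.04 ± 0.60, edgeR adjusted p = 0.000521). For both genes the highest ILC2 library stayed below the lowest NMUR1+ library. C1qb (log2 -2.93), Csf1r (-2.87), Tlr2 (-2.25), C1qa (-2.14), Ctss (-1.80) and Cst3 (-0.72) were lower too. Adgre1 did not pass (log2 -1.88 ± 0.84, edgeR adjusted p = 0.0827), but passed with mouse as a replicate block (edgeR adjusted p = 0.0352, range over the 19 alternatives 0.0110 to 0.604). In PBS mice alone 7 of the 10 passed, without Csf1r and C1qa. Markers of other cells were read in the same comparison, and their part in it was not tested. Of all genes tested there, 3175 (23.5%) were called lower in ILC2 and 2043 higher. All 11 B and plasma cell genes were lower in ILC2 (median log2 difference -3.70). They summed to 931 to 17078 CPM in ILC2 and 2225 to 99126 CPM in NMUR1+ CD4 T cells. Of 9 tested dendritic cell genes 6 were lower and 2 higher. Lower too were 3 of 8 neutrophil genes, 4 of 12 fibroblast genes and 1 of 10 epithelial genes, the last a share below that of all genes. Of 4 tested mast cell and eosinophil genes 1 was lower (Ccr3) and 1 higher (Kit).

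Against NMUR1- CD4 T cells, ILC2 differed in both directions. Of the 10 genes, 4 passed the test, where 40.5% of the 13509 genes tested were called, so the share of these genes was at the background. Chil3 was lower in ILC2, with 0 to 0.921 CPM against 1.38 to 17.2 CPM in NMUR1- CD4 T cells (edgeR adjusted p = 0.00133), although it did not pass with limma (adjusted p = 0.0975) or without mice 1, 4, 5 and 7 (adjusted p = 0.0729, range over the 19 alternatives 5.23e-08 to 0.0975). Ctss was lower as well, with 178, 270.1 and 370 CPM in ILC2 and 269.9, 358 and 428 CPM in NMUR1- CD4 T cells (log2 -0.47 ± 0.17, edgeR adjusted p = 0.0281), in each of the 8 mice, although it did not pass without mouse 1, 4, 7 or 8 (adjusted p over the 19 alternatives 0.00447 to 0.152). Cst3 went the other way, with 74.6, 93.4 and 116 CPM in ILC2 and 65.1, 73.2 and 85.5 CPM in NMUR1- CD4 T cells (log2 0.37 ± 0.11, edgeR adjusted p = 0.00938), again in each of the 8 mice, and did not pass in PBS mice alone (adjusted p = 0.174) or without mice 1, 4, 5 and 7 (adjusted p = 0.0699, range over the 19 alternatives 0.00211 to 0.174). Cd14 was lower on average (log2 -1.46 ± 0.43, edgeR adjusted p = 0.0110), with ILC2 below in all 4 NMU mice and above in 3 of the 4 PBS mice. In PBS mice alone the difference was 0.37 ± 0.60 and did not pass (edgeR adjusted p = 0.733, range over the 19 alternatives 0.000928 to 0.733). The remaining 6 genes did not pass, with log2 differences between -1.05 for Lyz2 and 0.51 for Tlr2. Of B and plasma cell genes 5 of 11 were lower and 1 higher in this comparison, of neutrophil genes 3 of 8 lower, and of dendritic cell genes 3 of 9 lower and 3 higher. Of all genes tested, 24.1% were called lower and 16.4% higher.

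The 10 genes did not vary together across the ILC2 libraries. Csf1r and Adgre1 had no counts at all in ILC2 of NMU mouse 1 and PBS mouse 7, and C1qa had 6.30 CPM in mouse 1 and 1.75 CPM in mouse 7. The same libraries held 312 CPM and 182 CPM of Ctss, 116 CPM and 74.6 CPM of Cst3, and 22.7 CPM and 24.2 CPM of Tlr2. Across the 8 ILC2 libraries, the Spearman rank correlation with the mean log2 level of the 10 genes, to which each gene itself contributes, was 0.98 for Lyz2, 0.95 for C1qb, 0.86 for C1qa, 0.85 for Csf1r and 0.78 for Adgre1. It was 0.64 for Cd14, 0.45 for Tlr2, 0.14 for Ctss, -0.05 for Cst3 and -0.25 for Chil3, which has counts in 1 ILC2 library. In NMUR1+ CD4 T cells it lay between 0.57 (Adgre1) and 0.98 (Cd14 and Tlr2) for all 10. In NMUR1- CD4 T cells it lay between 0.67 (Cst3) and 0.95 for the 9 genes other than Chil3 (-0.12). These values describe 8 libraries each, and the genes of a library share its depth and its mix of cells.

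NMU treatment changed none of these genes past the threshold in ILC2: 0 of the 9 tested passed, where 0.660% of the 11205 genes tested were called by edgeR. At an unadjusted p under 0.05 there were 3 (Cd14, C1qb and Tlr2), all lower, where 12.4% of genes were. The median log2 fold change of the 9 was -1.37, beside -0.03 over all genes tested. Chil3 had too few counts to be tested. Cd14 came nearest, with 11.6, 13.2, 0.684 and 9.64 CPM in NMU mice, against 113, 150, 28.5 and 157 CPM in PBS mice. Every NMU library was below every PBS library, by 13.04-fold in the fit (log2 -3.70 ± 0.76, edgeR adjusted p = 0.0658). DESeq2, which called 4.21% of the genes, called Cd14 (adjusted p = 0.00113), as did an edgeR fit of all 24 libraries (adjusted p = 0.00315), and over all 15 alternatives the adjusted p ran from 0.00113 to 0.270. C1qb had 2.66, 8.72, 19.5 and 2.71 CPM in NMU mice and 60.3, 46.4, 6.08 and 11.04 CPM in PBS mice, with overlap (log2 -1.89 ± 0.84, edgeR adjusted p = 0.393). Tlr2 had 22.7, 14.5, 13.3 and 15.6 CPM in NMU mice and 46.0, 32.5, 24.2 and 16.3 CPM in PBS mice (log2 -0.87 ± 0.37, edgeR adjusted p = 0.366). NMU mouse 1 was above PBS mouse 8, and the other 3 NMU libraries were below every PBS library.

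The other tested members in ILC2 overlapped between treatments. Lyz2 had 16.4, 68.8, 188 and 8.93 CPM in NMU mice and 354, 236, 29.0 and 105 CPM in PBS mice (log2 -1.37 ± 1.07, edgeR adjusted p = 0.700). Csf1r had 0, 19.8, 5.93 and 0.571 CPM in NMU mice and 79.0, 52.6, 0 and 8.59 CPM in PBS mice (log2 -2.43 ± 1.66, edgeR adjusted p = 0.636). Mice 5 and 6 carried the high PBS values of both genes. Adgre1 (log2 -1.30 ± 1.57) and C1qa (log2 -1.69 ± 0.98) did not pass. Ctss (log2 0.17 ± 0.25) and Cst3 (log2 0.18 ± 0.16) did not pass, with Ctss at 312, 300, 305 and 189 CPM in NMU mice and 370, 178, 182 and 240 CPM in PBS mice.

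In CD4 T cells no member passed either. In NMUR1+ CD4 T cells 0 of 10 passed, and 0 at an unadjusted p under 0.05, where 0% and 2.55% of the 12061 genes tested did, and the log2 fold changes lay between -0.75 for Chil3 and 0.16 for Cst3. DESeq2 and limma also called 0 of the 10. Cd14 had 367, 415, 938 and 325 CPM in NMU mice and 609, 204, 736 and 625 CPM in PBS mice (log2 -0.09 ± 0.46). Lyz2 had 741, 865, 1396 and 753 CPM in NMU mice and 1326, 390, 1245 and 714 CPM in PBS mice (log2 0.03 ± 0.38). Each treatment held high and low libraries of both genes. In NMUR1- CD4 T cells 0 of 10 passed, and 1 (Chil3) had an unadjusted p under 0.05, where 0% and 7.25% of the 12103 genes tested did, and DESeq2 and limma again called 0. Chil3 had 1.76, 2.59, 2.34 and 2.27 CPM in NMU mice and 1.38, 1.76, 11.9 and 17.2 CPM in PBS mice (log2 -1.86 ± 0.76, edgeR adjusted p = 0.669). PBS mice 7 and 8 were high and PBS mice 5 and 6 lay among the NMU mice. The same mice 7 and 8 also held the highest Chil3 of NMUR1+ CD4 T cells, 174 and 212 CPM.

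**Figure D4:**
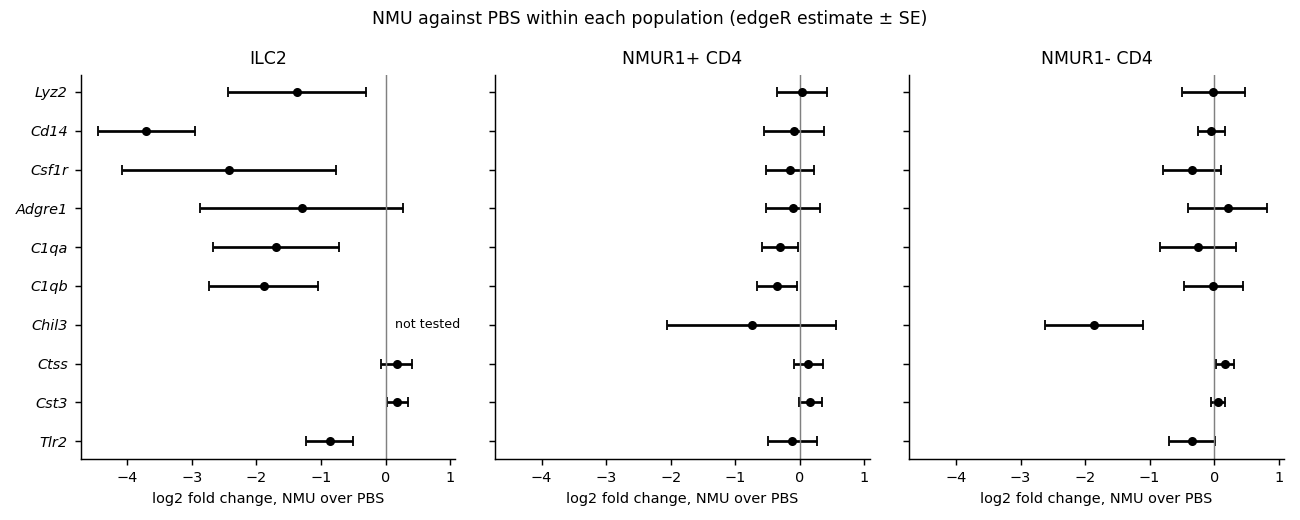
Log2 fold change of each gene, NMU over PBS, in ILC2 (left), NMUR1+ CD4 (middle) and NMUR1- CD4 T cells (right), with points at the edgeR estimate and bars of 1 SE, each from 8 libraries. Cd14 in ILC2 is farthest from 0, at -3.70, and the errors of Csf1r and Adgre1 in ILC2 are the widest of that panel.

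No member's NMU effect differed between populations past the threshold in the fit of all 24 libraries. For ILC2 minus NMUR1+ CD4 T cells 0 of 10 passed and 1 (Cd14) had an unadjusted p under 0.05, where 0.725% and 13.2% of the 13509 genes tested did. For ILC2 minus NMUR1- CD4 T cells the numbers were again 0 and 1 (Cd14), where 0.533% and 11.3% of genes passed. For NMUR1+ minus NMUR1- CD4 T cells they were 0 and 0, where 0% and 1.16% did. For Cd14 the log2 NMU effect in ILC2 minus that in NMUR1+ CD4 T cells was -3.60 ± 0.87 (edgeR adjusted p = 0.0622), and minus that in NMUR1- CD4 T cells it was -3.65 ± 0.87 (edgeR adjusted p = 0.0701). DESeq2, which called 3.82% and 2.86% of genes in these comparisons, called both differences (adjusted p = 0.00233 against NMUR1+ and 0.00207 against NMUR1- CD4 T cells), and the adjusted p ran to 0.232 and 0.300 over 15 alternatives each.

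A further list of 28 macrophage and monocyte genes was also highest in NMUR1+ CD4 T cells by its summed level. In NMUR1+ against NMUR1- CD4 T cells 12 of its 27 tested genes were higher and none lower, where 5.49% of all genes were called higher, with a median log2 difference of 1.85. Fcer1g, the shared chain of Fc receptors, had 182 ± 78.4 CPM in NMUR1+ and 43.7 ± 13.3 CPM in NMUR1- CD4 T cells (SD, n = 8 each). Tyrobp, an adaptor of activating myeloid receptors, had 80.1 ± 34.5 CPM in NMUR1+ against 16.3 ± 5.06 CPM in NMUR1- cells, and Spi1, which encodes PU.1, had 68.1 ± 28.6 CPM in NMUR1+ against 14.8 ± 5.36 CPM in NMUR1- cells. The count ran from 2 with the Jchain covariate, and in either treatment alone, to 24 in the fit of the CD4 T cell libraries alone, and it was 5 without mouse 2, 7 or 8. In ILC2, 24 of the 27 were lower than in NMUR1+ CD4 T cells (median log2 difference -3.13) and none higher, where 23.5% of all genes were called lower, and in PBS mice alone 13 passed. Ccr2, the chemokine receptor by which monocytes enter tissue and which T cells also express, had 118 ± 65.0 CPM in ILC2 and 1036 ± 414 CPM in NMUR1+ CD4 T cells, and Cybb, the membrane subunit of the phagocyte oxidase, had 11.8 ± 15.9 CPM in ILC2 and 179 ± 69.4 CPM in NMUR1+ CD4 T cells. Against NMUR1- CD4 T cells, 10 of 27 were lower in ILC2, among them Lgals3 (42.2 ± 16.1 CPM in ILC2 and 104 ± 39.9 CPM in NMUR1- cells), and 1 was higher, where 24.1% of all genes were called lower and 16.4% higher. The higher gene was Lilrb4a, an inhibitory receptor (336 ± 67.6 CPM in ILC2 and 189 ± 58.7 CPM in NMUR1- cells). Lilrb4a and Ly6c2 each have a near-identical neighbour (Lilr4b and Ly6c1), so their counts are uncertain. The 11 genes called in this comparison became 17 without mouse 3, 5 in PBS mice alone and 6 without mice 1, 4, 5 and 7. NMU against PBS in ILC2 gave 1 lower gene of 22 tested, where 0.660% of all genes were called. It was Ly6c2, the marker of inflammatory monocytes, with 1 count in all in NMU mice and 710 counts in PBS mice (edgeR adjusted p = 0.0398). Ly6c2 thus entered the test only through its counts in PBS mice. Of the list, 6 genes passed in the fit of all 24 libraries and 2 with DESeq2, while 0 passed with limma, with the Jchain covariate or when any 1 mouse was left out. For NMU against PBS in ILC2 the list had 5 genes with an unadjusted p under 0.05, where 12.4% of all genes did, and a median log2 fold change of -1.81. In both CD4 T cell populations 0 of its tested genes passed, and 0 had an unadjusted p under 0.05. The NMU effect in ILC2 was lower than that in NMUR1+ CD4 T cells for 2 of 27 genes, Trem2, a lipid-sensing receptor of macrophages (edgeR adjusted p = 0.0348), and Ly6c2 (edgeR adjusted p = 0.0451), and lower than that in NMUR1- CD4 T cells for the same 2 (edgeR adjusted p = 0.0315 for Trem2 and 0.0239 for Ly6c2). Of all genes tested, 0.725% were called in the comparison with NMUR1+ and 0.533% in that with NMUR1- CD4 T cells. Trem2 had 1 count in all in ILC2 of NMU mice and 79 counts in ILC2 of PBS mice. For Trem2 and Ly6c2 the size of the difference thus rests on counts near 0 in ILC2 of NMU mice.

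Genes of related pathways were read beside the members. Among cathepsins and cystatins, 8 of 12 were higher in NMUR1+ than in NMUR1- CD4 T cells and none lower, where 5.49% of all genes were called higher. These included the lysosomal proteases Ctsz (367 ± 76.7 CPM in NMUR1+ against 160 ± 25.1 CPM in NMUR1- cells), Ctsh (135 ± 37.1 CPM in NMUR1+ against 29.6 ± 11.4 CPM in NMUR1- cells) and Lgmn, which encodes legumain (935 ± 194 CPM in NMUR1+ against 256 ± 81.7 CPM in NMUR1- cells). Of the complement genes 2 of 12 were higher (C3 and the C5a receptor gene C5ar1), and of the CSF1 receptor pathway 2 of 9 (Csf2rb and Csf2ra, which encode chains of the GM-CSF receptor). Of the toll-like receptor pathway 0 of 11 passed there, while 5 had an unadjusted p under 0.05. ILC2 held more transcript than NMUR1- CD4 T cells of 5 of those 11, where 16.4% of all genes were called higher, including Irak1 (38.8 ± 6.34 CPM in ILC2 and 21.6 ± 2.77 CPM in NMUR1- cells), Traf6 (119 ± 26.1 CPM in ILC2 and 77.6 ± 4.88 CPM in NMUR1- cells) and Tlr4, the lipopolysaccharide receptor (12.1 ± 6.07 CPM in ILC2 and 3.06 ± 2.14 CPM in NMUR1- cells). Under NMU, 1 gene of the phagocyte oxidase list rose in ILC2: Ncf4, a cytosolic subunit, had 222 ± 44.8 CPM in NMU mice and 104 ± 21.2 CPM in PBS mice (SD, n = 4 each, log2 1.08 ± 0.19, edgeR adjusted p = 0.0404), where 0.660% of all genes were called. Of the 6 genes of that list 5 had an unadjusted p under 0.05, where 12.4% of all genes did, and the median log2 fold change of the 6 was -0.14. No gene of the CSF1 receptor, toll-like receptor, complement or cathepsin lists passed for NMU in ILC2, of 9, 11, 11 and 10 tested, while 2, 0, 5 and 4 had an unadjusted p under 0.05, as did 12.4% of all genes. The NMU effect on complement genes was lower in ILC2 than in NMUR1+ CD4 T cells for 3 of 12, where 0.725% of all genes were called in either direction. The 3 were C3, the central complement protein (edgeR adjusted p = 0.00834), Cd55, which encodes an inhibitor of complement on cells (edgeR adjusted p = 0.0148), and C4b (edgeR adjusted p = 0.0348). Of these, C3 (edgeR adjusted p = 0.0208) and Cd55 (edgeR adjusted p = 0.0107) were also lower against NMUR1- CD4 T cells, where 0.533% of all genes were called. C3 had 1 count in all in ILC2 of NMU mice and 134 counts in ILC2 of PBS mice, while Cd55 and C4b had no counts in ILC2 of NMU mice, against 220 counts of Cd55 and 326 counts of C4b in ILC2 of PBS mice. The size of these differences thus rests on counts at or near 0 in ILC2 of NMU mice.

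Markers of other cells that a sort could carry were read beside these genes, and their part in the results was not tested. In NMUR1+ against NMUR1- CD4 T cells, 2 of 9 tested dendritic cell genes were higher (Cd83 and Clec10a) and 1 lower (Ccr7), 0 of 8 neutrophil genes and 0 of 12 fibroblast genes passed, and 1 of 10 epithelial genes was higher (Epcam). Of 4 tested mast cell and eosinophil genes 1 was higher (Prg2, edgeR adjusted p = 0.0407) and none lower. Of the 13509 genes tested there, 741 (5.49%) were called higher and 382 lower. Neutrophil genes summed to 407 to 895 CPM in NMUR1+ and 180.7 to 633 CPM in NMUR1- CD4 T cells. In ILC2 they summed to 31.2 to 92.8 CPM in NMU mice, with 6 of 12 at 0, against 8.65 to 28.9 CPM in PBS mice 5, 6 and 7 and 499.5 CPM in PBS mouse 8, with 1 of 12 at 0. PBS mouse 8 also had the highest Cd14 in ILC2, 157 CPM. PBS mice 5, 6 and 7, with neutrophil sums of 8.65 to 28.9 CPM, held 113, 150 and 28.5 CPM of Cd14. The NMU mice had higher neutrophil sums than PBS mice 5, 6 and 7 and held 0.684 to 13.2 CPM of Cd14. In ILC2 of NMU mice the fibroblast genes summed to 2.57 to 38.9 CPM, with 3 of 12 at 0, against 13.1 to 471 CPM in PBS mice, none at 0. B and plasma cell genes summed to 931 to 1754 CPM in ILC2 of NMU mice and 2109 to 17078 CPM in ILC2 of PBS mice, without overlap. Of the 9 genes tested in each of these 2 lists 0 passed by edgeR in the same comparison of NMU with PBS in ILC2, where 0.660% of all genes did. There 6 B and plasma cell genes and 4 fibroblast genes had an unadjusted p under 0.05, as did 12.4% of all genes. Of 6 tested epithelial genes, Epcam was higher in ILC2 of NMU mice (log2 1.88 ± 0.32, edgeR adjusted p = 0.0308) and none was lower. The median log2 fold change of those 6 was -1.38. Of 3 tested mast cell and eosinophil genes 0 passed. Dendritic cell genes did not move one way: of 4 tested, Cd83, an activation marker that lymphocytes also express, was higher, with 2947 ± 763 CPM in ILC2 of NMU mice and 814 ± 358 CPM in ILC2 of PBS mice (SD, n = 4 each, edgeR adjusted p = 0.0346), while 6 of the 11 listed were at 0 in NMU mice and none in PBS mice. With Cd83 in it, the sum was 2046 to 3913 CPM in ILC2 of NMU mice and 627 to 1445 CPM in ILC2 of PBS mice. The 28 macrophage and monocyte genes summed to 475 to 1087 CPM in ILC2 of NMU mice and 597 to 2408 CPM in ILC2 of PBS mice, which overlap, with 2 of the 28 at 0 in NMU mice and 3 in PBS mice.

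Over the 8 libraries of each population, the genes whose levels ran most like the mean of the 10 were Fcgr3, a low-affinity Fc receptor gene (mean Spearman rank correlation over the 3 populations 0.93), Cyp4f18, a leukotriene-metabolising cytochrome P450 of mouse myeloid cells (0.93), Cd68, a lysosomal glycoprotein of macrophages (0.92), Tyrobp (0.91) and Mpeg1, which encodes the pore-forming perforin-2 (0.91). The median over the 12255 candidate genes was 0.01. Fcgr3 averaged 31.7 ± 34.9 CPM among ILC2 libraries, 200.4 ± 83.1 CPM among NMUR1+ and 44.7 ± 16.8 CPM among NMUR1- CD4 libraries (SD, n = 8 each). Mpeg1 averaged 19.2 ± 19.2 CPM among ILC2, 151 ± 57.8 CPM among NMUR1+ and 36.9 ± 18.3 CPM among NMUR1- CD4 libraries. These are descriptions over libraries that share their mice and their mix of cells.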

How the data were processed

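The deposited table holds gene counts per library for 24 libraries, unnormalised, and is used as the authors made it. RNeasy Micro columns gave the RNA and an NEBNext Single Cell/Low Input kit the libraries, per the labels' protocols; that kit keeps no strand and no molecular identifier. Per the submitters' processing notes, reads were aligned to mm10 with STAR 2.5.3. The counting program is not given in the sources used here. Of 27179 Entrez gene IDs, 25275 (93.0%) had a symbol, and the rest held 0.986% of counts. A transcript that overlaps a gene on the other strand cannot be told apart from it, and 14.3% of the 50-base words of Csf1r lie in Hmgxb3.

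Counts were tested with edgeR 4.0.16 (R 4.3.3) by its quasi-likelihood test, after filterByExpr (minimum count 10) and TMM scaling, with Benjamini-Hochberg adjustment over all genes tested and a threshold of 0.05. NMU and PBS were compared in the 8 libraries of each population. Populations, and differences of NMU effects, were compared in a fit of all 24 libraries with 6 group means. The SE is the log2 fold change divided by the square root of F. Alternatives used DESeq2 1.42.0, limma 3.58.1 (voom), other scalings, filters, covariates and samples. Libraries of 1 mouse come from the same animal, per the titles. Their deviations from the group means correlated between -0.01 and 0.51, with 11 of 24 pairs over 0.1. For NMUR1+ with NMUR1- CD4 T cells the correlation was 0.04 in mouse 7 and 0.22 to 0.51 in the other mice. For pairs with ILC2 it was -0.01 to 0.28. The main fit did not use this pairing, and mouse as a replicate block was an alternative. Scripts were tested on simulated data. The mice are biological replicates. Counting error is not corrected for PCR duplicates, so floors of 3 counts cover counting error only.

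The 10 members and 15 further gene lists were chosen with earlier results of these data known. Members are given whatever their test, and like genes by the 5 highest mean Spearman correlations of log2(CPM + 1) within populations. Apart from population markers, genes named as passing from other lists were among the up to 3 per direction and comparison with the smallest p. Not all of those are named. The count of phagocyte oxidase genes that differed between the CD4 T cell populations is not reported here.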

Additional observations from a re-analysis of the deposited data

Results flagged for a closer look

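Each of the 60 sets of 4 libraries (10 genes in 6 groups) was checked for a library standing far from the other 3, by its gap divided by the range of the group. For independent, normally distributed values chance alone picks out about 1 set in 20, and 8 sets were picked out here. The check used unlogged CPM of genes that share their libraries, so the 8 cannot be set against that rate. Mouse 3 gave 3 of them: in NMUR1+ CD4 T cells of NMU mice it held 938 CPM of Cd14, where the other 3 held 325 to 415 CPM, and 169 CPM of Tlr2, where the others held 72.1 to 83.6 CPM, and in ILC2 of NMU mice it held 40.8 CPM of Adgre1, where the others held 0 to 4.57 CPM. Mouse 5 gave 2, both in NMUR1- CD4 T cells of PBS mice: 53.5 CPM of Adgre1, where the others held 11.8 to 15.5 CPM, and 64.6 CPM of C1qb, where the others held 19.1 to 26.0 CPM. In ILC2 of PBS mice, Chil3 had 0.921 CPM in mouse 7 and 0 in the others, a pattern that this check always picks out. Ctss was low in 2 libraries: 189 CPM in ILC2 of NMU mouse 4, where the others held 300.3 to 312 CPM, and 550 CPM in NMUR1+ CD4 T cells of PBS mouse 6, where the others held 949 to 995 CPM.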

How the results depend on the processing

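Of 1005 repeats of single-gene results under other settings, the direction and the side of the threshold held in 430 repeats with a mouse left out and in 478 others. For NMU against PBS in ILC2, 1 member (Cd14) passed with DESeq2 and 1 in a fit of all 24 libraries. For the NMU effect in ILC2 minus that in NMUR1+ CD4 T cells, 1 passed with DESeq2 and 1 with immunoglobulin genes left out. For ILC2 minus NMUR1- CD4 T cells, 1 passed under each of these, and 0 to 1 with a mouse left out (1 without mouse 3). For ILC2 against NMUR1- CD4 T cells, 1 passed in PBS mice only and 0 without mice 1, 4, 5 and 7. For NMUR1+ against NMUR1- CD4 T cells, 10 passed in the fit of these 2 populations, 4 with the Jchain covariate, 4 in NMU mice only and 4 in PBS mice only. With mouse as a replicate block, Lyz2 no longer passed there (log2 1.949, adjusted p = 0.0574) and Adgre1 passed in ILC2 against NMUR1+ CD4 T cells; it changed no other call on the 10 genes. The causes were not tested.

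Signs that turned are all of values that did not pass, except Cd14 in ILC2 against NMUR1- CD4 T cells, where PBS mice alone gave a log2 difference of 0.3671; there they also gave 0.4341 for Csf1r, 0.3662 for Adgre1 and 0.2749 for C1qa, and without mice 1, 4, 5 and 7 the values were 0.1769 for Csf1r, 0.6409 for Adgre1 and 0.6674 for C1qa. For NMU against PBS, the Jchain covariate gave 1.538 for Adgre1 in ILC2, 0.0003597 for Cd14 and 0.03758 for Adgre1 in NMUR1+, and -0.2576 for Adgre1 in NMUR1- CD4 T cells. Limma gave 0.01178 for Csf1r, 0.1483 for Adgre1 and 0.03387 for Tlr2 in NMUR1+, and 0.1413 for Lyz2 and 0.03408 for C1qb in NMUR1- CD4 T cells. With each mouse left out in turn, the NMU against PBS value in NMUR1+ CD4 T cells ran from -0.2215 to 0.2568 for Lyz2, -0.5562 to 0.08944 for Cd14, -0.3731 to 0.3679 for Adgre1, -0.03415 to 0.2782 for Ctss and -0.4707 to 0.1193 for Tlr2. In NMUR1- CD4 T cells it ran from -0.257 to 0.5509 for Lyz2, -0.1496 to 0.1136 for Cd14, -0.1451 to 0.969 for Adgre1, -0.5908 to 0.3224 for C1qa and -0.3408 to 0.5066 for C1qb.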
